A study of Mus musculus with 6 samples.

Results

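Collagens are the main structural proteins of the extracellular matrix, and each collagen molecule is a helix of intertwined chains that are encoded by separate genes. The fibrillar collagens assemble into the striated fibrils of the endomysium, perimysium and tendon. Type IV collagen forms the sheet-like network of the basement membrane around muscle fibers and capillaries, and type VI collagen forms beaded microfibrils that lie next to that membrane. In skeletal muscle most collagen is made by fibroblasts and fibro-adipogenic progenitors, not by the muscle fibers. Loss of type VI chains is known to cause muscular dystrophy.

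The chains were taken as all mouse genes in the deposited table whose symbol is Col, a number, the letter a and a number, which gave 44 of 52550 genes. Of these, 11 are fibrillar, 6 are type IV, 6 are type VI, 2 are multiplexins (Col15a1 and Col18a1, basement membrane collagens with interrupted helices), 9 are FACIT collagens (fibril-associated collagens with interrupted triple helices) and 10 belong to smaller classes.

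The samples were skeletal muscle of 3 male FLExDUX4 mice and 3 male WT mice, which were their littermates. FLExDUX4 mice are hemizygous for a human DUX4 transgene that sits inverted between lox sites at the Rosa26 locus (the allele tm1.1(DUX4*)Plj). DUX4 is a transcription factor whose misexpression causes facioscapulohumeral muscular dystrophy. No Cre was present in these mice, and the transgene is expressed in them only through a low level of leakage. Wild-type mice carried no transgene, and the labels name no treatment. The labels give quadriceps of mice aged 13 weeks, whereas the methods of the study give triceps of younger mice, and which of these applies to the libraries is not settled here.

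RNA was sequenced with QuantSeq, which reads each polyadenylated transcript about once at its 3′ end, so that the counts of chains can be set side by side without a correction for gene length. The values used were the counts of each gene summed over the 3 mice of a genotype, of 13110125 for FLExDUX4 and 18367364 for wild-type over all genes. These totals were scaled by TMM, and a log2 ratio is FLExDUX4 over wild-type throughout. With only 1 total per genotype used, there is no replicate check here, so no p-values are given, and a single mouse could set a ratio. The deposited table also holds columns of single libraries and of the authors' own comparison, which were not used. Brackets hold 95% intervals that cover counting error only. The terms higher and lower describe these totals and not the genotypes. As a reference, the 13396 genes with enough counts had a median log2 ratio of -0.001, with quartiles of -0.28 and 0.28. Among the 4577 of them with at least 500 counts the quartiles were -0.14 and 0.14. Scaling to the 99 ERCC and SIRV spike-in RNAs lowered every ratio by the same amount (a shift of -0.28), and differences between chains do not depend on this choice. The human transgene has no row among the mouse genes, and the mouse genes named Duxbl1, Duxbl2, Duxbl3 and Duxf3 had no counts in either genotype, so the genotype labels could not be checked by the transgene. Muscle fiber markers were high in both genotypes, with Acta1 at 35944 and 34706 CPM (counts scaled to a common library size by TMM). The muscle fiber marker sum differed by a log2 ratio of -0.01 [-0.01 to -0.00].

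The promoters of 1 chain from each side of the main contrast are shown, a type IV window that Col4a1 and Col4a2 share and a type I window. Each runs from 250 bases before a RefSeq transcription start to 50 bases after it on the GRCm38.p6 build, 5′ to 3′ on the plus strand. The Col4a2 window (chr8:11312555-11312854) was chosen because Col4a1 and Col4a2 start head to head, and it holds both starts. The Col1a2 window (chr6:4505368-4505667) is its fibrillar counterpart, chosen after the values were seen, and it lies inside the GENCODE gene, downstream of the first annotated base. Capitals mark CCAAT boxes, GC boxes (GGGCGG) and the SMAD-binding letters CAGACA, each on either strand.
Col4a2: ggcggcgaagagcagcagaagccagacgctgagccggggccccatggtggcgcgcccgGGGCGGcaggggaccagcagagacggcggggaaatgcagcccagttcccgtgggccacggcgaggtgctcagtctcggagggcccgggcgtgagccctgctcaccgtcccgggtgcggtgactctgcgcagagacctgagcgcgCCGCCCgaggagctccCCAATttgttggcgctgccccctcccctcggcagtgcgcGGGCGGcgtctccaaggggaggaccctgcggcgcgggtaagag
Col1a2: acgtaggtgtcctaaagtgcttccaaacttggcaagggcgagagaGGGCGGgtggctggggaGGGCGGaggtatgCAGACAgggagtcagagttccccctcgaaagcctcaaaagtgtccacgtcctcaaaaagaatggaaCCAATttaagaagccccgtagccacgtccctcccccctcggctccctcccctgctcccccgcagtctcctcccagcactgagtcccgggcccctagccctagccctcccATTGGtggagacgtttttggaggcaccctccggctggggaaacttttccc
The Col4a2 window held 1 CCAAT box and 3 GC boxes. The Col1a2 window held 2 CCAAT boxes, 2 GC boxes and 1 CAGACA match. No TATA box (TATAAA) was found in either.

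Motifs were counted in the same way in 38 windows of the 35 chains that had an entry, and in all 32851 mouse promoter windows of that length. GC boxes were found in 23 of the 38 collagen windows (60.5%), against 35.7% of all windows. The other motifs were about as frequent as elsewhere. CCAAT boxes were in 13 collagen windows (34.2%, against 37.4%), TATA boxes in 5 (13.2%, against 13.6%) and CAGACA in 9 (23.7%, against 21.04%). GC boxes were in 6 of 8 fibrillar, 4 of 5 type IV and 5 of 7 type VI windows. CAGACA was in 3 of 8 fibrillar windows and in none of the 5 type IV or 7 type VI windows. Several windows belong to the same chain or overlap, and a match of these letters is not a binding site. Col1a1 has no entry.

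All 44 chains could be accounted for. The 34 chains with enough counts under edgeR's filter were compared. A further 6 had a few counts only, namely Col2a1, Col4a6, Col6a5, Col17a1, Col25a1 and Col28a1, with 7 counts in FLExDUX4 and 27 in wild-type between them. No counts were found for Col6a4, Col9a2, Col9a3 and Col10a1. The depth is uneven, since 12 chains with at least 500 counts over both genotypes held 93.6% of all collagen counts in FLExDUX4 and 93.5% in wild-type.

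**Figure D1:**
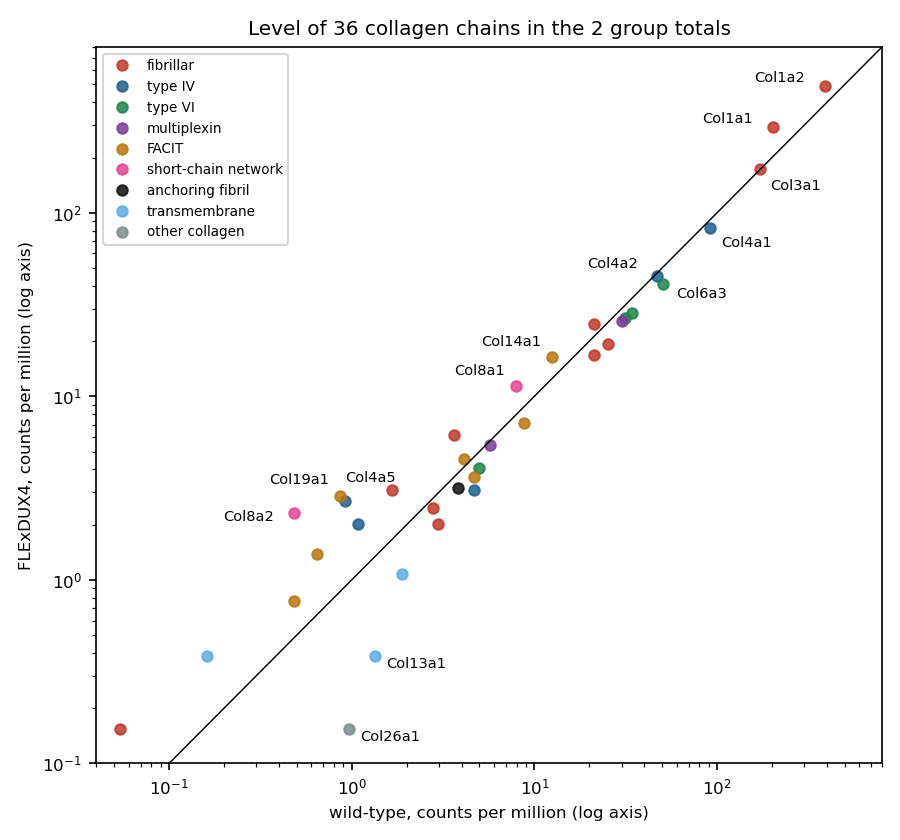
Level of each of the 36 collagen chains with counts in both genotypes, in CPM, with wild-type on the x axis and FLExDUX4 on the y axis (both log axes). Points are 1 chain each, colored by class, and the line marks equal levels. The type I chains Col1a2 and Col1a1 lie highest, at 489 and 293 CPM in FLExDUX4, and above the line, while the points scatter more widely at low levels.

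Collagen transcripts were 0.134% of gene counts in FLExDUX4 (17538 counts) [0.132 to 0.136] and 0.121% in wild-type (22186 counts) [0.119 to 0.122]. By TMM scaling, the log2 ratio of the sums was 0.18 [0.15 to 0.21]. The median over the 34 chains was -0.12, so the sum and the median differ in sign. The sum was set by a few abundant chains, as Col1a2, Col1a1 and Col3a1 together took 70.6% of the collagen counts in FLExDUX4 and 63.9% in wild-type. With spike-in scaling the number of compared chains above 0 changed from 15 to 12 of 34. Most genes compared fall below 0 by that scaling, as its shift of -0.28 is close in size to their upper quartile (0.28). Since these are bulk RNA data, fewer cells of a type and less RNA per cell cannot be told apart.

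By a log2 ratio of at least 0.5, 10 of the 34 chains were higher in FLExDUX4, where 15.7% of all genes compared were. By a log2 ratio of at most -0.5, 5 chains were lower, where again 15.7% of all genes were. By spike-in scaling the balance turned, with 6 chains higher and 15 lower. That scaling lowers every gene alike, and the shares of all genes past the threshold by it were not counted. The turn is thus not read as a result about collagens. The interval lay above 0 for 10 chains (20.5% of all genes) and below 0 for 10 chains (20.6% of all genes), and it held 0 for 14. Most chains past the fold threshold had few counts. Of the 12 chains with at least 500 counts, 1 was higher (Col1a1), where 2.62% of genes of that depth were, and none was lower, where 1.70% were. Of the same 12 chains, 3 lay above the upper quartile of genes of that depth (Col1a1, Col1a2 and Col5a2) and 7 below the lower quartile (Col5a1, Col5a3, Col4a1, Col6a1, Col6a2, Col6a3 and Col15a1). The remaining Col3a1 and Col4a2 lay between.

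The main contrast of the family was between fibrillar collagens and the collagens of the basement membrane and the microfibrils. Summed over their chains, fibrillar collagens had 13356 counts in FLExDUX4 and 15638 in wild-type, a log2 ratio of 0.29 [0.26 to 0.32], or 1.22-fold higher. Type IV collagens had 1757 and 2711 counts, a log2 ratio of -0.11 [-0.20 to -0.02], which rested on Col4a1 and was -0.031 without it. Type VI collagens had 1301 and 2255 counts, a log2 ratio of -0.28 [-0.38 to -0.18], or 1.21-fold lower. By TMM scaling the fibrillar sum was thus higher and the type IV and type VI sums lower, while 4 of the 10 compared fibrillar chains were below 0. By spike-in scaling the fibrillar sum was at 0.01, and type IV and VI were at -0.39 and -0.55.

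The differences between classes do not depend on scaling. There were 7.60 fibrillar counts for each type IV count in FLExDUX4 and 5.77 in wild-type, a log2 difference of 0.40 [0.30 to 0.49]. With the multiplexins added to type IV it was 0.42 [0.33 to 0.50]. For each type VI count there were 10.3 fibrillar counts in FLExDUX4 and 6.93 in wild-type, a log2 difference of 0.57 [0.46 to 0.67]. Type IV was also higher relative to type VI, by 0.17 [0.04 to 0.30].

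The fibrillar difference to type IV rested largely on type I collagen, and that to type VI did so in part. Without Col1a1 and Col1a2, a comparison added after the values were seen, the other fibrillar chains had 3207 and 4653 counts, a log2 ratio of -0.02 [-0.09 to 0.04]. The difference to type IV was then 0.09 [-0.02 to 0.20], with an interval that holds 0, and the difference to type VI was 0.26 [0.14 to 0.38]. By the median over the compared chains in place of the sum, the differences were 0.18 to type IV and 0.38 to type VI.

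**Figure D2:**
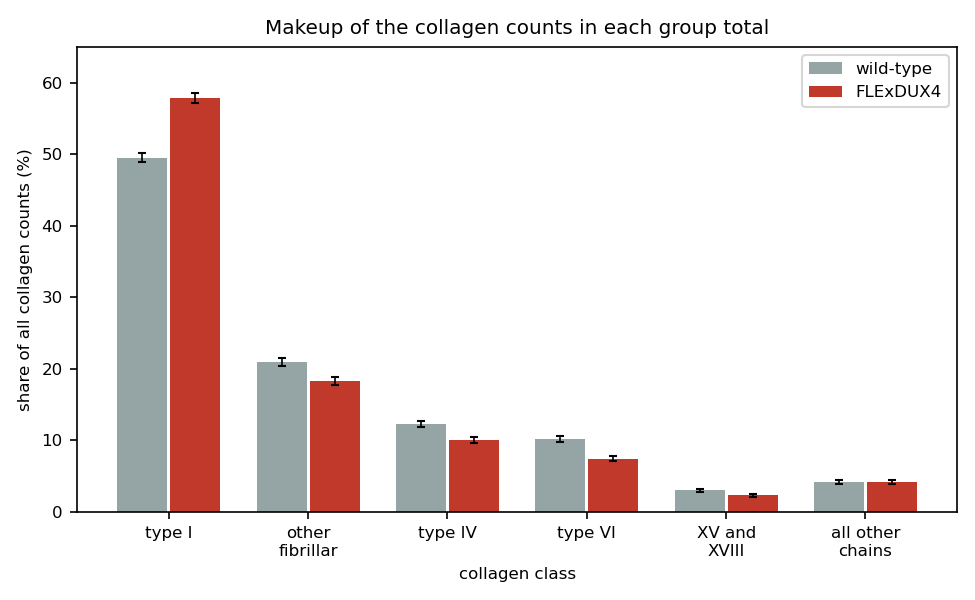
Share of all collagen counts (y axis, %) that each collagen class took (x axis) in wild-type (grey) and FLExDUX4 (red), with 95% Clopper-Pearson intervals for counting error. Type I took 57.9% in FLExDUX4 and 49.5% in wild-type, while the shares of the other fibrillar chains, type IV, type VI and the multiplexins were lower in FLExDUX4.

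As shares of the collagen counts, type I took 57.9% in FLExDUX4 [57.1 to 58.6] and 49.5% in wild-type [48.9 to 50.2]. The other fibrillar chains took 18.3% [17.7 to 18.9] and 20.97% [20.4 to 21.5]. Type IV, type VI and the multiplexins each took a smaller share in FLExDUX4. Type IV took 10.02% [9.58 to 10.5] and 12.2% [11.8 to 12.7]. Type VI took 7.42% [7.03 to 7.82] and 10.2% [9.77 to 10.6]. The multiplexins took 2.29% [2.08 to 2.52] and 3.01% [2.79 to 3.24]. All remaining chains took 4.12% in both genotypes, and among them the FACIT collagens took 2.72% [2.48 to 2.97] and 2.67% [2.46 to 2.89].

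Among fibrillar collagens, type I is the most abundant protein of tendon and perimysium, and its molecule joins α1 chains from Col1a1 with an α2 chain from Col1a2. Col1a2 (chromosome 6, 4504814 to 4541544) had the highest level of all chains, with 6351 counts in FLExDUX4 and 7230 in wild-type, or 489 and 390 CPM. Its log2 ratio was 0.33 [0.28 to 0.38]. Col1a1 (chromosome 11, 94936224 to 94953042) was second, with 3798 and 3755 counts, or 293 and 202 CPM. Its log2 ratio was 0.53 [0.47 to 0.60]. Both type I chains were higher in FLExDUX4 under every scaling used, down to 0.05 for Col1a2 and 0.26 for Col1a1 by the spike-ins. The chains did not move by the same amount. The count of Col1a1 for each count of Col1a2 was 0.598 in FLExDUX4 and 0.519 in wild-type, a log2 difference of 0.20 [0.12 to 0.29].

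Col3a1 (chromosome 1, 45311538 to 45349706) encodes the single chain of type III collagen, which is co-assembled with type I in compliant tissue. It had 2238 and 3189 counts and the same level in both genotypes, 172 CPM, with a log2 ratio of 0.01 [-0.07 to 0.08]. Type I therefore differed from Col3a1 by 0.40 [0.31 to 0.48], with 4.53 type I counts for each Col3a1 count in FLExDUX4 and 3.44 in wild-type.

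The type V chains, which regulate the nucleation and diameter of type I fibrils, did not follow type I as a set. Their sum had 789 and 1258 counts, a log2 ratio of -0.16 [-0.29 to -0.03], and it differed from type I by 0.56 [0.42 to 0.69]. Col5a1 (chromosome 2, 27886425 to 28039514), the main α1(V) chain, had 250 and 472 counts and a ratio of -0.40 [-0.63 to -0.18]. Col5a3 (chromosome 9, 20770050 to 20815067), the α3(V) chain, had 219 and 393 counts and a ratio of -0.33 [-0.57 to -0.09]. Col5a2 (chromosome 1, 45374321 to 45503282), the α2(V) chain, stood apart from both. It had 320 and 393 counts and a ratio of 0.22 [0.0025 to 0.44], which is -0.06 by spike-in scaling. The ratio of Col5a2 to Col5a1 counts was 1.28 in FLExDUX4 and 0.833 in wild-type, a log2 difference of 0.62 [0.31 to 0.94], and Col5a2 differed from Col5a3 by 0.55 [0.22 to 0.88]. Col5a2 lies tail to tail with Col3a1, 24614 bases away, and differed from it by 0.21 [-0.02 to 0.45].

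The minor fibrillar chains had under 150 counts each over both genotypes and scattered widely. Col11a1 (chromosome 3, 114030540 to 114220718), which partners with type V chains outside cartilage, had 80 and 67 counts and a ratio of 0.77 [0.29 to 1.26]. Col11a2 (chromosome 17, 34039437 to 34066685), the other type XI chain, had 26 and 55 counts and a ratio of -0.55 [-1.30 to 0.13]. Summed, type XI had a ratio of 0.31 [-0.08 to 0.70], with an interval that holds 0. Col24a1 (chromosome 3, 145292472 to 145552011), a fibrillar chain known from bone, had 40 and 31 counts and a ratio of 0.88 [0.17 to 1.61]. Col27a1 (chromosome 4, 63214004 to 63334991), known from cartilage, had 32 and 52 counts and a ratio of -0.18 [-0.87 to 0.48]. Col2a1, the cartilage collagen, had 2 counts and 1 count. Of the 5 cartilage markers, Acan, Hapln1 and Matn1 had no counts in either genotype. Sox9, which is also expressed outside cartilage, was the 1 marker with enough counts to be compared, with 68 and 160 counts and a ratio of -0.71 [-1.15 to -0.30]. The marker sum was at -0.77 [-1.21 to -0.36].

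**Figure D3:**
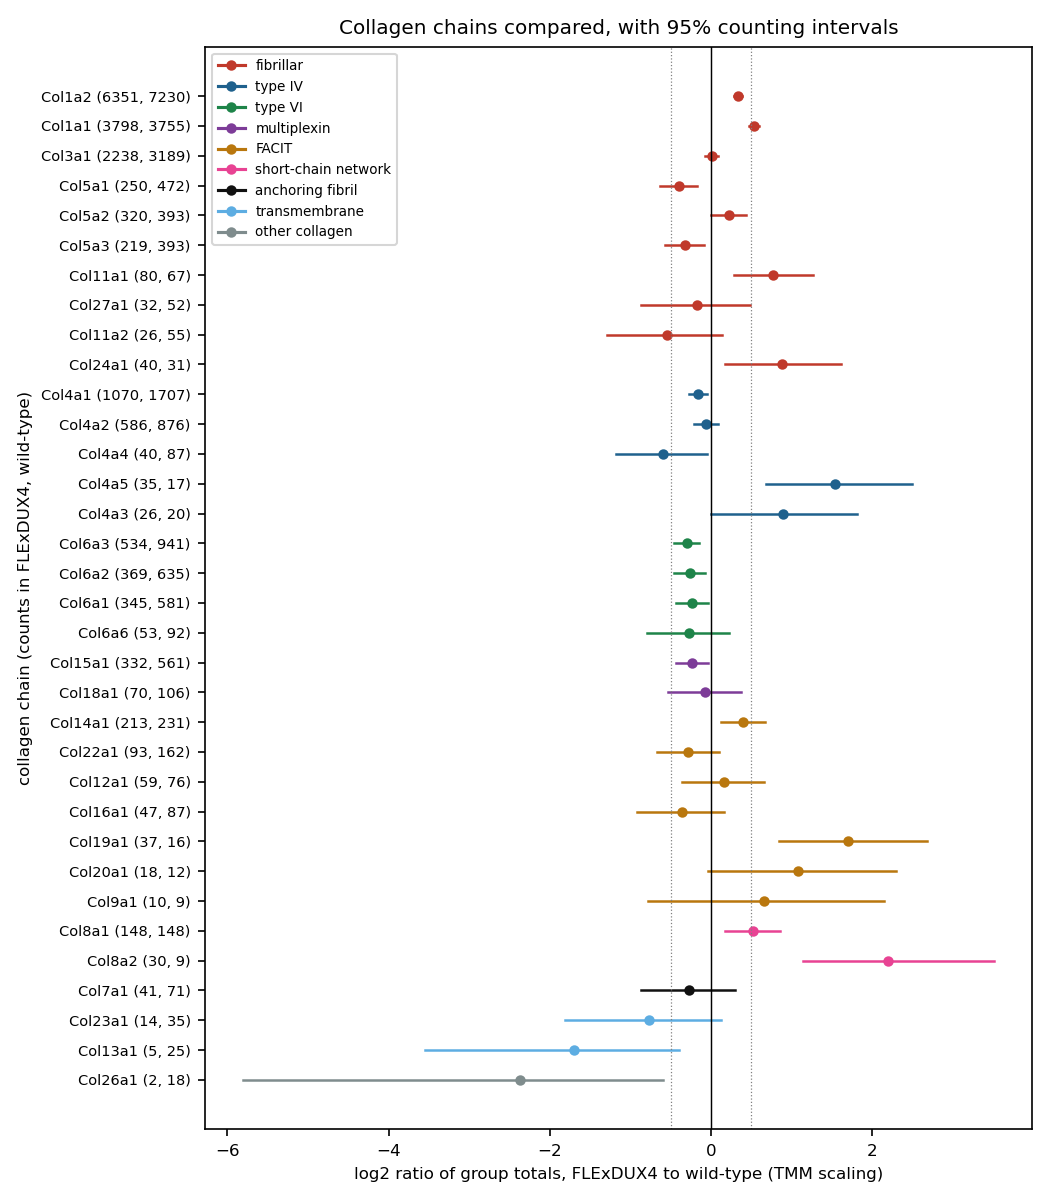
Log2 ratio of FLExDUX4 to wild-type (x axis, TMM scaling) for the 34 compared chains (y axis, with the counts in FLExDUX4 and wild-type in brackets). Points are ratios, bars are 95% counting intervals, and dotted lines mark the fold threshold of 0.5 in either direction. The 4 compared type VI chains sit close together between -0.30 and -0.23, whereas fibrillar chains run from -0.55 to 0.88 and type IV chains from -0.59 to 1.54.

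Type IV collagen of the muscle basement membrane is built from the α1 and α2 chains. Col4a1 (chromosome 8, 11198423 to 11312826, minus strand) had 1070 and 1707 counts and a ratio of -0.16 [-0.27 to -0.05]. Col4a2 (chromosome 8, 11312805 to 11449287, plus strand) had 586 and 876 counts and a ratio of -0.06 [-0.22 to 0.09]. This pair is transcribed in opposite directions from the shared window printed above, and the annotated genes overlap by 22 bases at their starts. Col4a1 had 1.83 counts for each Col4a2 count in FLExDUX4 and 1.95 in wild-type, a log2 difference of -0.09 [-0.28 to 0.10], so a difference between the partners was not detectable at this depth. The antisense gene Gm15418 lies over the last 1000 bases of Col4a1. Counts of such a pair cannot be told apart unless strand was used in counting, which is not given in the sources used here.

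The α3 to α6 chains, which make the type IV networks of kidney, lung and smooth muscle basement membranes, had few counts and went in different directions. Col4a4 (chromosome 1, 82448423 to 82586849) had 40 and 87 counts and a ratio of -0.59 [-1.18 to -0.05]. Col4a3 (chromosome 1, 82586921 to 82722059), its head-to-head neighbor at a gap of 71 bases, had 26 and 20 counts and a ratio of 0.89 [-0.00 to 1.81]. Unlike Col4a1 and Col4a2, this pair had ratios of opposite sign. Col4a3 was named after its counts were seen, as it falls under the 50 counts set for naming, and the antisense gene C430014B12Rik lies over its last 1000 bases. Col4a5 (chromosome X, 141475385 to 141689234) had 35 and 17 counts and a ratio of 1.54 [0.68 to 2.49], the highest of type IV. Its head-to-head neighbor Col4a6, 1308 bases away, had no counts in FLExDUX4 and 4 in wild-type.

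The multiplexins of the vascular and muscle basement membrane zone were both below 0. Col15a1 (chromosome 4, 47208161 to 47313167), which is known from capillaries and the muscle fiber surface, had 332 and 561 counts and a ratio of -0.24 [-0.44 to -0.04]. Col18a1 (chromosome 10, 77052178 to 77166548), the source of endostatin, had 70 and 106 counts and a ratio of -0.08 [-0.54 to 0.37]. Slc19a1 lies antisense over the last 1000 bases of Col18a1. The chains differed from each other by -0.16 [-0.65 to 0.34], with an interval that holds 0.

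Of the classes with at least 4 compared chains, type VI had the narrowest range of ratios, from -0.30 to -0.23. The range depends on depth and on the number of chains. Low-count chains set the ends of the other ranges, while 3 of the 4 type VI chains had at least 500 counts. The molecule is assembled from α1, α2 and α3 chains, and all 3 were lower in FLExDUX4 to about the same degree. Col6a3 (chromosome 1, 90765923 to 90843971), the largest chain, had 534 and 941 counts and a ratio of -0.30 [-0.46 to -0.15]. Col6a2 (chromosome 10, 76595762 to 76623630) had 369 and 635 counts and a ratio of -0.27 [-0.46 to -0.08]. Col6a1 (chromosome 10, 76708792 to 76726168) had 345 and 581 counts and a ratio of -0.23 [-0.43 to -0.04]. The proportions of the chains were close to equal in the genotypes. Col6a1 and Col6a2, tandem neighbors 85161 bases apart, differed by 0.03 [-0.24 to 0.30]. Col6a3 had 1.55 counts for each Col6a1 count in FLExDUX4 and 1.62 in wild-type, a difference of -0.07 [-0.32 to 0.19]. Col6a6 (chromosome 9, 105687809 to 105828160), an alternative to the α3 chain, had 53 and 92 counts and a ratio of -0.27 [-0.80 to 0.22]. None of the 4 passed the fold threshold, and 3 of the 4 intervals lay below 0, beside 20.6% of all genes compared. Col6a5, also an α3-like chain, had no counts in FLExDUX4 and 6 in wild-type, and the upper end of its log2 interval was at 0.28, so a difference was not detectable at this depth.

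FACIT collagens, which decorate the surface of fibrils, had 477 and 593 counts, a ratio of 0.20 [0.03 to 0.38]. Of 7 compared chains, 5 were above 0, beside 49.9% of all genes compared. The interval lay above 0 for 2 of them, beside 20.5% of all genes, and held 0 for the other 5. Col14a1, a fibril-surface collagen of tendon and perimysium, had 213 and 231 counts and a ratio of 0.40 [0.12 to 0.67]. Col12a1, its close relative in tendon, had 59 and 76 counts and a ratio of 0.15 [-0.36 to 0.66]. Col22a1, which marks the myotendinous junction, had 93 and 162 counts and a ratio of -0.28 [-0.67 to 0.09]. Of these 3 chains, the intervals of Col12a1 and Col22a1 held 0. Col16a1 had 47 and 87 counts and a ratio of -0.36 [-0.92 to 0.16]. Col19a1, a collagen of basement membrane zones, had 37 and 16 counts and a ratio of 1.70 [0.84 to 2.67].

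The short-chain network collagens were the class with the highest summed ratio, at 0.70 [0.38 to 1.02]. Col8a1, a collagen of vessel walls and subendothelial matrix, had 148 counts in each total and a ratio of 0.52 [0.18 to 0.85]. Its equal counts at unequal depth give 11.4 and 7.97 CPM. Col8a2, its partner chain, had 30 and 9 counts and a ratio of 2.20 [1.14 to 3.51], the highest of the 34 compared chains, and was named after its counts were seen.

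At the other end were low-count chains. Col7a1, the anchoring fibril collagen of epithelial basement membranes, had 41 and 71 counts and a ratio of -0.27 [-0.87 to 0.30]. The transmembrane collagens had 24 and 74 counts in sum, a ratio of -1.09 [-1.84 to -0.43]. Among them Col13a1, a collagen of the neuromuscular junction, had 5 and 25 counts and a ratio of -1.70 [-3.55 to -0.39]. Col23a1 had 14 and 35 counts and a ratio of -0.78 [-1.81 to 0.13]. Col17a1, the hemidesmosome collagen of skin, had no counts in FLExDUX4 and 11 in wild-type, and the upper end of its log2 interval was at -0.81. Among the 34 compared chains the lowest ratio was that of Col26a1, with 2 and 18 counts, at -2.37 [-5.81 to -0.59]. These last 4 chains were under 50 counts over both genotypes and were named after their counts were seen.

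Collagen chains are hydroxylated and folded in the endoplasmic reticulum, trimmed by propeptide peptidases, cross-linked outside the cell and bound by receptors. None of these steps showed a shift of most of its genes past the fold threshold. For hydroxylation and folding, 17 of 18 genes were compared, with a median log2 ratio of 0.01, 2 higher and 4 lower by the same threshold. In this and the following lists, these counts stand beside 15.7% of all genes compared that were higher and 15.7% that were lower. The sum was at 0.11 [0.07 to 0.16]. Mia3, which loads procollagen into export vesicles, had the most counts (2247 and 2664) and a ratio of 0.27 [0.19 to 0.35]. P4hb, the shared subunit of prolyl 4-hydroxylase, was at 0.09 [-0.03 to 0.21]. P3h3, a prolyl 3-hydroxylase family member, was the highest at 0.92 [0.37 to 1.49]. Crtap, the partner of prolyl 3-hydroxylase 1, was the lowest at -1.23 [-2.39 to -0.27] from 11 and 38 counts.

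For propeptide processing, 4 of 8 genes were compared, with a median of 0.13. All 4 were above 0, as were 49.9% of all genes compared, and none was past the threshold. Pcolce, an enhancer of procollagen C-proteinase, had 614 and 791 counts and a ratio of 0.15 [-0.00 to 0.30]. Pcolce2, its paralog, was the highest at 0.39 [0.16 to 0.61], and Adamts2, the procollagen N-proteinase, the lowest at 0.05 [-0.27 to 0.37]. The cross-linking genes were centered near 0, with a median of -0.04 over 6 genes, 1 higher and none lower. The lysyl oxidase Loxl2 was at -0.16 [-0.41 to 0.09] and Loxl1 at 0.08 [-0.19 to 0.35]. Loxl3 was the highest at 0.97 [0.12 to 1.87] and Loxl4 the lowest at -0.43 [-2.18 to 1.04], both from few counts.

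Of the collagen receptors, 7 of 10 were compared, with a median of -0.05 and a sum at 0.14 [0.07 to 0.21], so that median and sum differ in sign. The integrin β1 subunit Itgb1 was the highest at 0.20 [0.11 to 0.30], and its collagen-binding partner Itga1 was at 0.13 [-0.02 to 0.27]. Mrc2, an endocytic collagen receptor, was the lowest at -1.01 [-1.75 to -0.36] and the 1 receptor past the threshold.

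Of the proteins that lie with type IV collagen in the basement membrane, 7 of 11 were above 0, as were 49.9% of all genes compared. Their median was 0.11, with 2 higher and none lower, beside the same 15.7% of all genes in each direction. Sparc, a collagen-binding matricellular protein, had 4700 and 5405 counts and a ratio of 0.31 [0.26 to 0.37]. Lamb2, a laminin β chain, was at -0.03 [-0.15 to 0.08]. Nid2, a nidogen, was the highest at 0.82 [0.38 to 1.26], and Agrn, the heparan sulfate proteoglycan agrin, the lowest at -0.18 [-0.68 to 0.30]. With spike-in scaling, 8 of the 11 were below 0. The same scaling put below 0 the ratios of 14 of 17 hydroxylation and folding genes, 3 of 4 propeptide processing genes, 4 of 6 cross-linking genes and 7 of 7 receptors. Spike-in scaling shifts every ratio by -0.28, close in size to the upper quartile of all genes compared (0.28). Most genes compared thus fall below 0 with it, and these counts are not read as a trait of the lists.

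**Figure D4:**
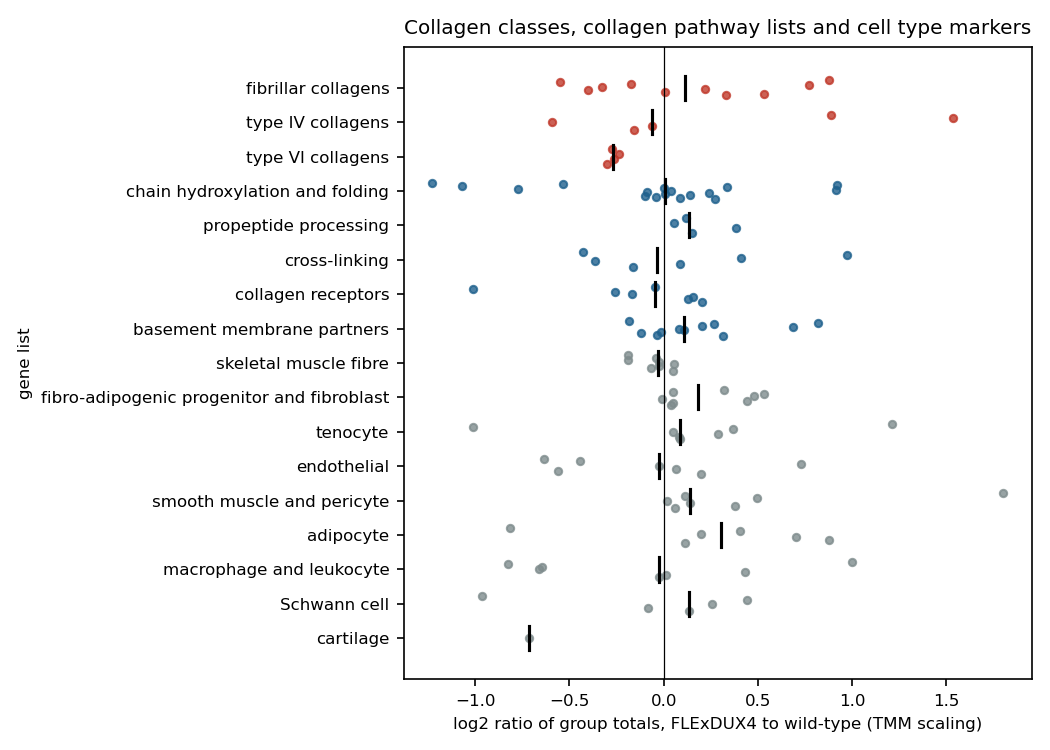
Log2 ratios of FLExDUX4 to wild-type (x axis, TMM scaling) for the compared genes of each list (y axis). Points are single genes of 3 collagen classes (red), collagen pathway lists (blue) and cell type markers (grey), and black bars are medians. Type VI chains form a tight group around their median of -0.27, while the medians of the 5 pathway lists lie between -0.05 and 0.13.

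Markers of the cell types that make collagen were summed in the same totals. The counts of markers above 0 stand beside 49.9% of all genes compared. Markers of fibro-adipogenic progenitors and fibroblasts summed to 1535 CPM in FLExDUX4 and 1463 in wild-type, a ratio of 0.07 [0.04 to 0.10], with 7 of 8 above 0 and a median of 0.18. Dcn and Gsn, which hold most of these counts, were at 0.04 [-0.00 to 0.08] and 0.05 [0.01 to 0.09]. The less abundant Mfap5, Lum and Ly6a were at 0.53 [0.30 to 0.76], 0.48 [0.26 to 0.70] and 0.44 [0.30 to 0.58], and Pi16 was at 0.32 [-0.13 to 0.76]. Pdgfra, a defining marker of these cells, was at 0.05 [-0.21 to 0.30] and Dpt at -0.01 [-0.15 to 0.14]. Tenocyte markers summed to 193 and 182 CPM, a ratio of 0.09 [0.01 to 0.16], with 6 of 7 compared above 0. Comp, the remaining marker, was under the filter, with no counts in FLExDUX4 and 10 in wild-type. The upper end of its log2 interval was at -0.65. Tnmd, a defining tenocyte gene, was at 0.37 [0.09 to 0.65] and Scx, another, at -1.01 [-1.501 to -0.56]. Smooth muscle and pericyte markers summed to 0.12 [0.07 to 0.18] with 7 of 7 above 0, of which 4 were below 0 by spike-in scaling. Endothelial markers summed to -0.01 [-0.07 to 0.05] with 3 of 7 above 0, but single genes lay on both sides. Kdr was at -0.56 [-0.70 to -0.42], Tek at -0.63 [-1.04 to -0.25] and Emcn at -0.44 [-0.81 to -0.09]. Esam was at 0.73 [0.52 to 0.94] and Flt1 at 0.20 [0.09 to 0.30], while the intervals of Pecam1 (0.06) and Cdh5 (-0.03) held 0. Adipocyte markers had the highest sum of these lists, at 0.34 [0.29 to 0.40] with 5 of 6 above 0. Macrophage and leukocyte markers summed to -0.04 [-0.16 to 0.09] and Schwann cell markers to 0.08 [-0.01 to 0.17]. By spike-in scaling, which lowers every gene alike, 4 of 8 fibroblast, 4 of 7 tenocyte and 6 of 7 endothelial markers were also below 0. So were 3 of 6 adipocyte, 5 of 7 macrophage and leukocyte and 4 of 5 Schwann cell markers. The part of a different cell makeup, or of a different amount of tendon, fascia or fat in the dissected muscles, in the collagen ratios was not tested.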

How the data were processed

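The authors sequenced muscle RNA of 3 mice per genotype, trimmed QuantSeq 3′ reads with cutadapt 1.16 and aligned them with STAR 2.5.3a to GRCm38 (Ensembl 90) joined to ERCC and SIRV sequences. The submitters' processing notes also name FastQC 0.11.7, featureCounts 1.6.2 and DESeq2. The authors deposited raw counts per feature summed over each genotype, and these totals were used here. A further 6 columns hold single libraries under names that no label explains, and others are columns of the authors' own comparison (mean, fold change, standard error, statistic and p-values). None of these columns was used, so no test across mice was run.

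Totals of 52550 genes were scaled with edgeR 4.0.16 under R 4.3.3 (TMM), with filterByExpr keeping 13396 genes. A pseudocount of 0.5 was added to each total before log2 ratios were formed. Intervals for ratios and shares are 95% Clopper-Pearson, and those for differences between classes are from Fisher's conditional estimate (Python 3.11.15, scipy 1.17.1). All cover counting error only, and reads without molecular identifiers are not independent molecules.

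Named genes were the chains of every class with at least 50 counts over both genotypes, and in each pathway list the highest, the lowest and the 2 genes with the most counts. Chains named with fewer counts, and single cell type markers, were chosen after their values were seen. The members, classes and lists were chosen with earlier results of these data known. Itgam has 2 rows, and the row with more counts was taken. Coordinates are from GENCODE M21 (GRCm38), whose gene starts equal the deposited ones for all 44 chains. Promoter windows are from RefSeq. The ratio and interval code was tested on simulated counts.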

Additional observations from a re-analysis of the deposited data

How the results depend on the processing

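No paired analysis was possible because no column of the table could be tied by its name to 1 animal. For the same reason leaving out a mouse, edgeR's quasi-likelihood test and DESeq2 were not run. Protein features were not analysed here. Upper quartile, RLE and gene-total scaling kept the direction of the fibrillar, type IV and type VI sums and changed no count of chains past the fold threshold by more than 1.5 times, and a smaller pseudocount and one of 2 left these counts as they were. Spike-in totals moved the fibrillar sum from 0.29 to 0.013, type IV from -0.11 to -0.39 and type VI from -0.28 to -0.55, changed the chains past the threshold from 10 higher and 5 lower to 6 higher and 15 lower, and reversed Col5a2 (-0.056). Of the 27 chains with at least 50 counts, 12 others moved past their counting interval with spike-ins, and none did with the other scalings or filters. Spike-in totals shift every gene by -0.28, and the share of all genes past the threshold with them was not counted. Why the spike-ins gave other ratios was not tested. By the median over chains, the fibrillar value was 0.11, the type IV value -0.063, and the fibrillar difference to type IV 0.18 and to type VI 0.38. Without the chain with the most counts in each class, the fibrillar value was 0.25, the type IV value -0.031 and the fibrillar difference to type IV 0.28. Without the type I chains, added after the data were seen, the fibrillar sum reversed to -0.020, and the differences were 0.089 to type IV and 0.26 to type VI. With no filter 9 chains were lower, and with at least 10 counts in each total 3 were lower. At an absolute log2 ratio of at least 1, 6 chains passed, 4 higher and 2 lower. With at least 50 counts over both totals, also added later, 8 passed, 6 higher and 2 lower. The shares of all genes at these other filters and thresholds were not counted, so these counts have no reference. Ratios of chains under 50 counts are limited by depth, as their intervals span more than 1 log2 unit. Some chains above 50 counts are limited in the same way, such as Col4a5 [0.68 to 2.49] and Col24a1 [0.17 to 1.61].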
